A study of Homo sapiens with 6 samples.

Results

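The genes described here act in G2 and mitosis. They were chosen by symbol from a list of 42 genes, and all 42 were found in the deposited table of 32896 genes. Expression was measured by RNA-seq of polyadenylated RNA in BHT101, an established human cell line from an anaplastic thyroid carcinoma. The cells received an SK4 plasmid (n = 3 libraries) or a control plasmid (n = 3 libraries) by lipid transfection and were harvested after 48 h. SK4 is the calcium-activated potassium channel KCa3.1, encoded by KCNN4, and the series asked which genes and splicing events lie downstream of it. Both groups are the same line and both were transfected, so the comparison is of plasmids and not with untouched cells. The share of cells that took up plasmid is not given in the labels. Control replicate 3 is labelled BHT102 in its treatment field but BHT101 elsewhere, and its title places it among the controls. Separate cultures are not stated for the libraries of either group. The p-values therefore reflect how far these libraries scatter, which may be technical scatter.

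Cells enter mitosis when cyclin-dependent kinase 1, bound to cyclin A or B, is freed from inhibitory phosphorylation by CDC25 phosphatases. The spindle assembly checkpoint then holds the anaphase-promoting complex until every kinetochore is attached, after which securin and cyclin B are degraded and the chromatids separate. Transcripts of these genes accumulate late in the cell cycle, under the MuvB complex with B-MYB and FOXM1, and are repressed in quiescent cells. Their summed level in a culture is therefore widely used as a readout of proliferation.

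KCNN4 was at 184.14, 147.66 and 169.2 FPKM in SK4 replicates 1 to 3, against 8.31, 8.26 and 8.52 FPKM in control replicates 1 to 3 (log2 fold change 4.23, limma adjusted p = 8.83e-07; exact two-sided permutation p = 0.1, the smallest 3 against 3 libraries allow). FPKM is fragments counted per gene, scaled to gene length and to the mapped fragments of the library. The libraries held an estimated 36500000 to 38400000 fragments in the SK4 group and 29700000 to 38500000 in the control group, with control replicate 3 the shallowest. The epithelial keratin genes KRT8, KRT18 and KRT19 were at 129.51 to 258.53 FPKM in the SK4 libraries and 124.14 to 244.28 FPKM in the control libraries. Of the other epithelial genes listed, EPCAM was at 11.3 to 12.48 FPKM in the SK4 libraries and 10.39 to 12.68 FPKM in the control libraries. CDH1 was low, at 1.59 to 1.97 FPKM in the SK4 libraries and 1.65 to 1.79 FPKM in the control libraries. The thyroid genes TG and TSHR were at 0.01 FPKM or less in every library, and the thyroid transcription factor PAX8 was at 0.35 to 0.39 FPKM in the SK4 libraries and 0.24 to 0.4 FPKM in the control libraries. The leukocyte marker PTPRC was at 0.01 FPKM or less, whereas CD68, listed with it, was at 1.63 to 2.19 FPKM in the SK4 libraries and 1.7 to 1.9 FPKM in the control libraries.

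No G2 or mitosis gene was called different between the plasmids. Of the 42 genes, 40 reached 1 FPKM in 3 or more libraries and were tested, and CENPE and NUSAP1 did not. Of those 40, 0 were called higher and 0 lower at an adjusted p below 0.05 (limma, Benjamini-Hochberg over 11139 tested genes), against 0.00898% of all tested genes, which is KCNN4 alone. An unadjusted p below 0.05 was reached by 0 of the 40, against 1.65% of all tested genes, made up of 1.06% higher and 0.593% lower in SK4. The median gene of the 40 had a log2 fold change of 0.00115, against 0.0108 over all tested genes. Of the 40, 21 were positive and 19 negative, against 57.9% positive over all tested genes. With each library centred on its median gene the split was 16 positive and 24 negative, against 49.9% positive. Fold changes are SK4 over control on the log2(FPKM + 0.5) scale, so a change of a low gene comes out too small. In bulk RNA, fewer cells in G2 or mitosis and less of these transcripts per cell cannot be told apart.

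The 95% confidence intervals of all 40 tested genes stayed within a 1.5-fold difference, up or down, against 96.8% of all tested genes. The interval of CENPF came closest, with an upper end of 1.484-fold, and with a pseudocount of 0.1 those of CENPF and HMMR passed 1.5-fold. With 1 library left out, 35 to 40 of the 40 intervals stayed within it, and those that passed it were of CENPF, ECT2, HMMR, KIF11 and TOP2A. With all 6 libraries and the pseudocount of 0.5, the intervals of 21 genes stayed within 1.2-fold, against 57.7% of all tested genes. The fold changes ranged from -0.12 on the log2 scale for NEK2 to 0.20 for CENPF.

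**Figure D1:**
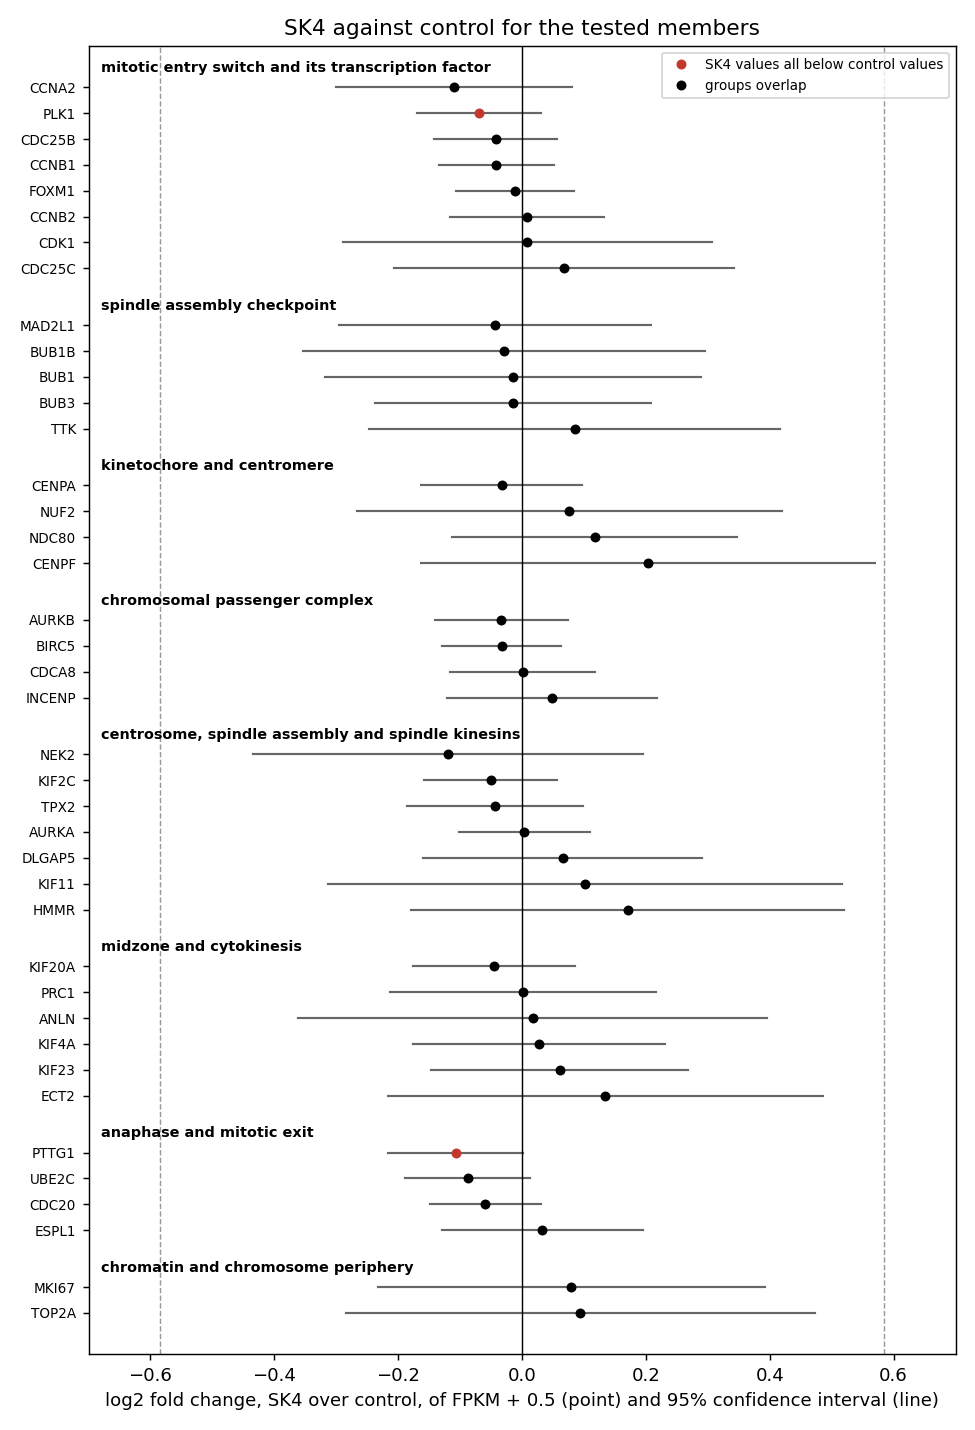
Log2 fold change, SK4 over control, of FPKM + 0.5 (horizontal axis) for the 40 tested genes grouped by role. Points are limma estimates, lines their 95% confidence intervals and dashed lines 1.5-fold in either direction; every interval crosses 0, and PLK1 and PTTG1 (red) are the genes whose 3 SK4 values all lie below the 3 control values.

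The promoters of these genes were set against all promoters in the table for a pair of elements known from cell cycle genes. A window from 250 bases before to 50 bases after each RefSeq start site (GRCh38.p14) was given for 35 of the 42 genes, 45 windows in all, with none for AURKA, BIRC5, BUB3, FOXM1, TPX2, TTK or UBE2C. Each window was searched on both strands for the CHR element, the site bound by MuvB (the letters TTTGAA or their reverse complement, and also TTCGAA), and for the CCAAT box, the site bound by NF-Y (the letters CCAAT or their reverse complement). The CHR letters stood in 30 of the 45 windows (66.7%), against 16.4% of all 35116 windows in the table and 11.3% of the 11398 windows of genes tested here. A CCAAT box stood in 34 windows (75.6%), against 34.6% of all windows and 35.3% of those of tested genes. Both stood in 25 windows (55.6%), against 6.38% and 4.65%. Genes of the same machinery, in the lists described further on, also held them often. Of their 152 windows, 40.1% held the CHR letters, 54.6% a CCAAT box and 23.0% both. By gene, 23 of the 35 (65.7%) had both in at least 1 window. That share was 30.4% of the listed related genes, 6.21% of tested genes and 7.85% of all genes with a window. In 2 of the 45 windows a CHR match overlapped a CCAAT match. Windows of the same gene share sequence, and a match is a run of letters, not a bound site.

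The matches were unevenly placed. Of the 42 CHR matches, 19 began within 40 bases before the start site, with a median first base at -28. Of the 70 CCAAT matches, 45 began between -120 and -41, with a median at -78.5. Positions were counted in these windows only, so the placement is not shown to be particular to these genes. A site in overlapping windows of a gene was counted in each. The 150 bases before the start site are shown for 6 genes, with matches in capitals, to show how the arrangement varies. Cyclin B2 (CCNB2, chr15:59104996-59105145, plus strand, GRCh38.p14) has 3 CCAAT boxes beginning at -120, -87 and -54 and a CHR element at -29. PLK1 (chr16:23678739-23678888, plus strand) has 1 of each, at -73 and -29. In CDC20 (chr1:43358831-43358980, plus strand) a CHR element at -65 lies between CCAAT boxes at -100 and -55. In KIF23 (chr15:69414199-69414348, plus strand) the CCAAT box is on the opposite strand, at -64, and the CHR element follows at -55. Cyclin B1 (CCNB1, chr5:69167000-69167149, plus strand) has CCAAT boxes at -87 and -55 and PTTG1 (chr5:160421705-160421854, plus strand) has matches at -103, -51 and -48, the final pair overlapping on opposite strands. Neither holds the CHR letters searched for in these bases, and no other letters were searched as a CHR element.
CCNB2: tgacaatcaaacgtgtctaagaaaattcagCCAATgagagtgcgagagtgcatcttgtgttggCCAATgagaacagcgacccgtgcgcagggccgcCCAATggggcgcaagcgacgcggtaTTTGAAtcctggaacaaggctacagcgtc
PLK1: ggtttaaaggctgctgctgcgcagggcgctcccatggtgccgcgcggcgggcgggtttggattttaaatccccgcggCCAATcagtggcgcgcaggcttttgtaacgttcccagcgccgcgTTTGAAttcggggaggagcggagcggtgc
CDC20: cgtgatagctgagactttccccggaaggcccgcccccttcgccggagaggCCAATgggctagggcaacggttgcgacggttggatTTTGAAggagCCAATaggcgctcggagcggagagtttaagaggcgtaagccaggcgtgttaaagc
KIF23: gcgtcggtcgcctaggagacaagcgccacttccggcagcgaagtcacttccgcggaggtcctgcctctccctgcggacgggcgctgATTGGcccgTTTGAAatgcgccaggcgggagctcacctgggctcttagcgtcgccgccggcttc
CCNB1: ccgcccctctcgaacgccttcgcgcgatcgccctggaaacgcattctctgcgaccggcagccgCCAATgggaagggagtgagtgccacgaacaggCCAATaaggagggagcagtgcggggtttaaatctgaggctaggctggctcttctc
PTTG1: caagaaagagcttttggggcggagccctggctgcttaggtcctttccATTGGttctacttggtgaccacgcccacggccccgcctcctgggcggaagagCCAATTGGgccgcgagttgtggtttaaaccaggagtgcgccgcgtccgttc

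**Figure D2:**
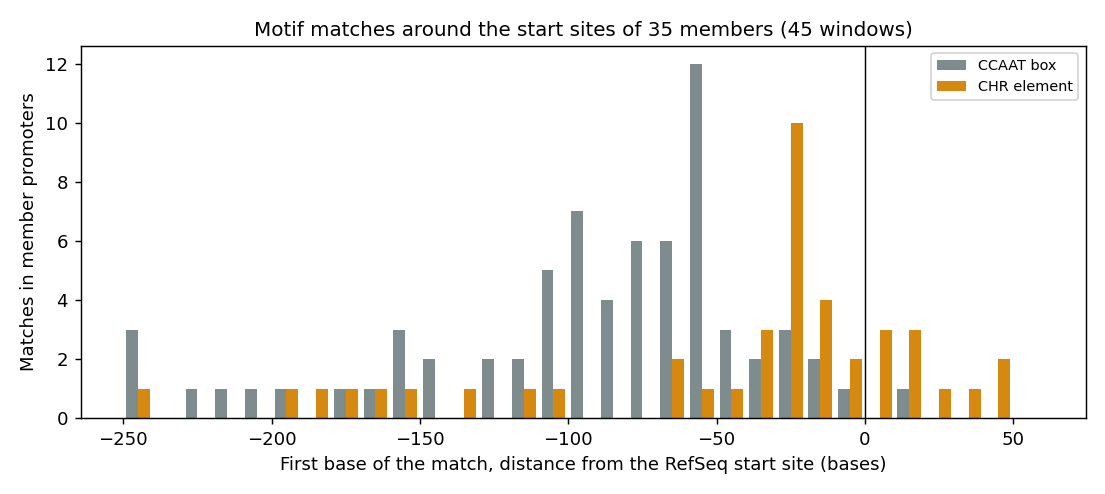
Number of motif matches in 10-base bins (vertical axis) by the distance of the first base of the match from the RefSeq start site in bases (horizontal axis), over the 45 windows of 35 genes. CHR matches (orange) gather just before the start site, with a median of -28, and CCAAT matches (grey) farther upstream, with a median of -78.5.

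Levels spanned a wide range. FPKM is scaled to gene length, but comparisons between genes are only approximate. Values in some libraries moved with GC content, as described further on, and the gene annotation behind the FPKM is not given. CDC20 was the most abundant, with a mean of 85.1 FPKM over the 6 libraries, followed by UBE2C at 78.6, CCNB1 at 49.6, CDC25B at 46.5 and TPX2 at 39.9 FPKM. Among the tested genes CENPF was the lowest, at 1.035 FPKM. Higher levels went with higher GC content of the longest GENCODE 29 transcript across the 40 tested genes (Spearman rho 0.50, a description, since all points come from the same 6 libraries).

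**Figure D3:**
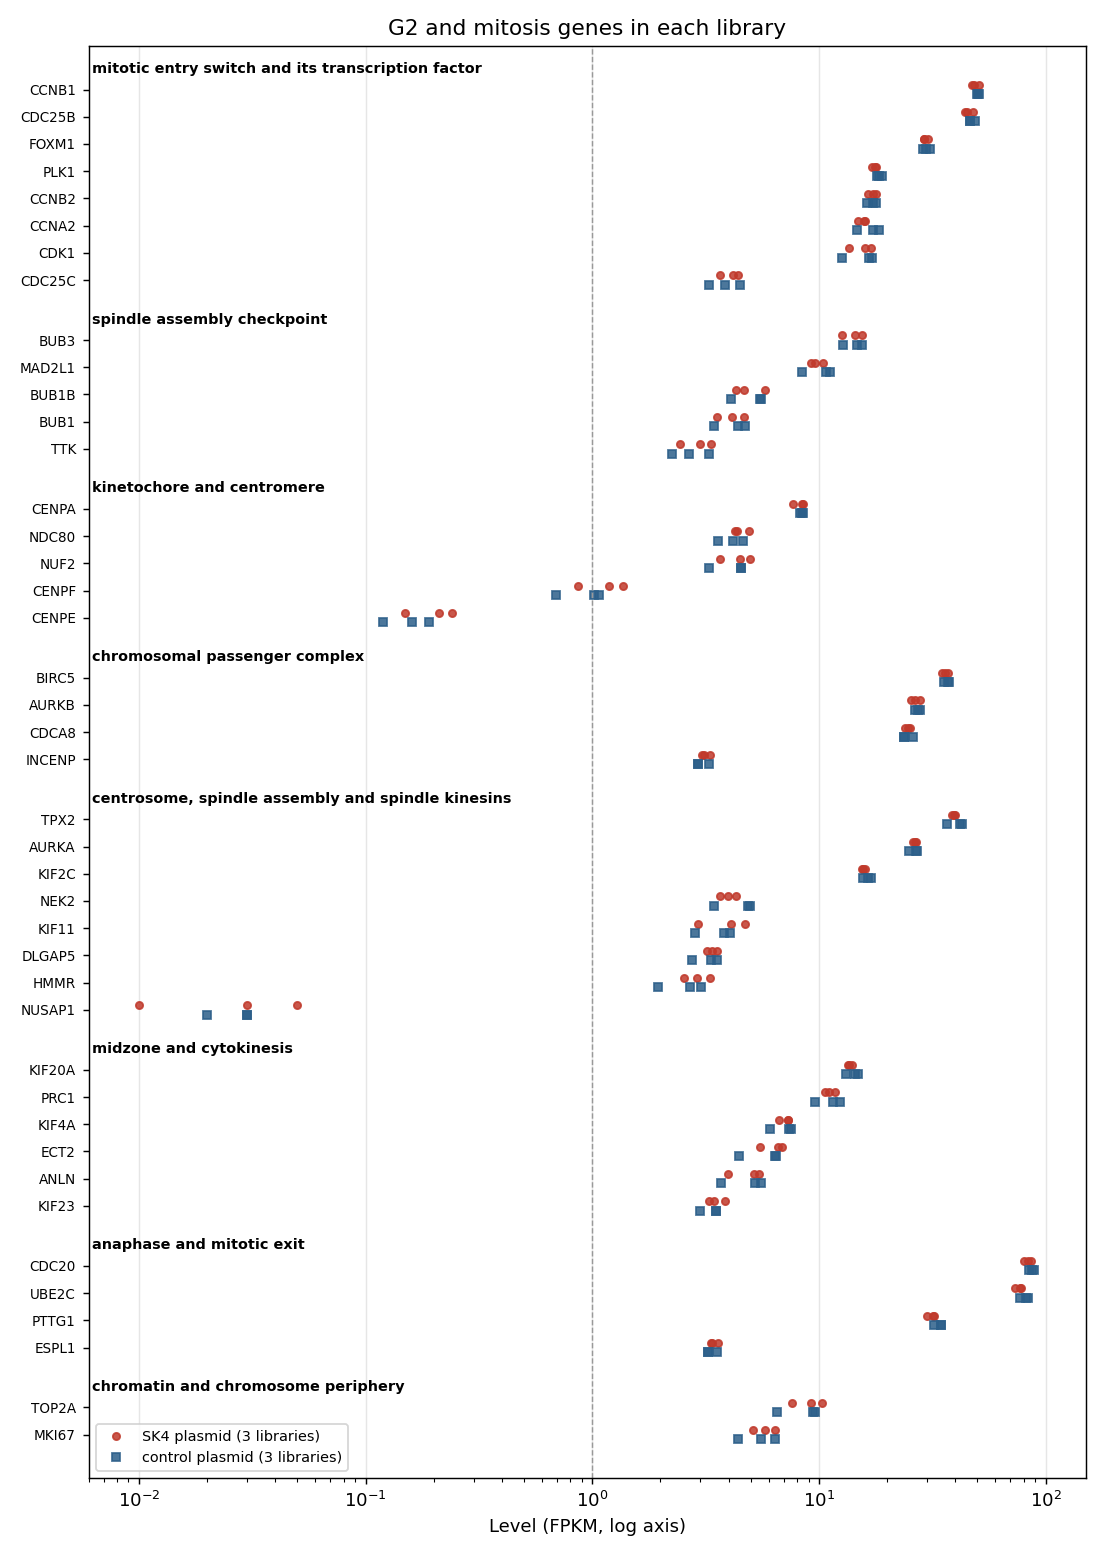
Level of each of the 42 genes in FPKM (horizontal log axis), by role and by mean level within a role, with SK4 libraries as red circles above control libraries as blue squares. The groups lie on top of each other for nearly every gene; CENPE and NUSAP1 are the genes left of the dashed line at 1 FPKM in every library.

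None of the 8 genes of the switch that starts mitosis was called, and their median was -0.026 on the log2 scale. CCNB1, cyclin B1, was at 47.12, 48.45 and 51.06 FPKM in the SK4 libraries, against 49.6, 50.83 and 50.46 FPKM in the control libraries. Its 3 control values lie inside the SK4 range (log2 fold change -0.042, SE 0.040). CDK1, the catalytic partner, averaged 15.5 ± 1.72 FPKM in the SK4 libraries and 15.5 ± 2.45 FPKM in the control libraries (SD, n = 3 each), and CCNB2 averaged 17.2 ± 0.707 and 17.2 ± 0.821 FPKM. CCNA2, cyclin A2, averaged 15.5 ± 0.601 FPKM in the SK4 libraries and 16.8 ± 1.87 FPKM in the control libraries, where the 14.77 FPKM of control replicate 3 lay below all SK4 values. CDC25B and CDC25C, phosphatases that activate CDK1, averaged 45.8 ± 1.88 and 4.07 ± 0.379 FPKM in the SK4 libraries, against 47.1 ± 1.25 and 3.88 ± 0.625 FPKM in the control libraries. FOXM1, the transcription factor that drives this gene set, was at 29.5 ± 0.567 FPKM in the SK4 libraries and 29.8 ± 0.989 FPKM in the control libraries (log2 fold change -0.011, 95% interval of the fold 0.929 to 1.06).

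PLK1, the polo-like kinase that promotes entry and spindle assembly, was 1 of the 2 genes whose groups did not overlap. It held 17.1, 17.76 and 17.82 FPKM in the SK4 libraries, against 17.98, 18.47 and 18.92 FPKM in the control libraries. All SK4 values lay below all control values, by a gap of 0.16 FPKM (log2 fold change -0.070, SE 0.043, limma adjusted p = 0.99997). In GRCh38, PLK1 (ENSG00000166851) spans 23677656 to 23690367 of chromosome 16, plus strand. The groups were apart, lower in SK4, for 2 of the 40 tested genes, PLK1 and PTTG1, against 1.81% of all tested genes, and apart, higher in SK4, for 0 of the 40, against 3.53%. After the GC correction described further on, the PLK1 values of the groups overlapped.

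Spindle checkpoint genes were measured with wide spread within each group. BUB3, which binds BUB1 and BUBR1 to kinetochores, was at 15.49, 12.64 and 14.38 FPKM in the SK4 libraries, against 15.53, 14.68 and 12.74 FPKM in the control libraries. The lowest value of each group, SK4 replicate 2 and control replicate 3, nearly coincided. BUB1B, which encodes the checkpoint protein BUBR1, averaged 4.91 ± 0.757 FPKM in the SK4 libraries and 5.03 ± 0.823 FPKM in the control libraries, and the kinase gene BUB1 4.13 ± 0.555 and 4.19 ± 0.657 FPKM. MAD2L1, whose product inhibits CDC20, averaged 9.74 ± 0.607 FPKM in the SK4 libraries and 10.1 ± 1.51 FPKM in the control libraries. TTK, the MPS1 kinase at the head of the checkpoint, averaged 2.92 ± 0.453 FPKM in the SK4 libraries and 2.73 ± 0.503 FPKM in the control libraries. Log2 fold changes of these 5 genes lay between -0.044 and 0.085.

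The kinetochore and centromere genes held the largest positive fold change, and it was within the spread. CENPF, a large coiled-coil protein of the outer kinetochore, was at 1.19, 0.87 and 1.37 FPKM in the SK4 libraries, against 1.02, 1.07 and 0.69 FPKM in the control libraries. SK4 replicate 2 lay below control replicates 1 and 2, so the groups overlapped (log2 fold change 0.20, SE 0.156, limma adjusted p = 0.99997). The gene CENPF (ENSG00000117724) spans 214603195 to 214664588 of chromosome 1, plus strand. NDC80, the microtubule-binding subunit of the complex named after it, was at 4.27, 4.36 and 4.9 FPKM in the SK4 libraries, against 4.2, 4.61 and 3.58 FPKM in the control libraries. NUF2, its partner in that complex, had nearly the same level, with a NUF2 to NDC80 ratio of 1.05, 0.837 and 1.01 in the SK4 libraries and 1.08, 0.987 and 0.911 in the control libraries. CENPA, the histone H3 variant that marks centromeres, was at 8.49, 7.71 and 8.39 FPKM in the SK4 libraries, against 8.53, 8.4 and 8.24 FPKM in the control libraries. CENPE, a kinetochore kinesin, did not pass the filter and was at 0.24, 0.15 and 0.21 FPKM in the SK4 libraries and 0.19, 0.16 and 0.12 FPKM in the control libraries.

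The chromosomal passenger complex, the Aurora B kinase with its 3 partners, was among the most evenly measured. BIRC5, which encodes survivin, was at 34.85, 37.15 and 35.89 FPKM in the SK4 libraries, against 35.61, 37.47 and 37.3 FPKM in the control libraries. The groups overlapped (log2 fold change -0.033, SE 0.041). AURKB averaged 26.6 ± 1.23 FPKM in the SK4 libraries and 27.3 ± 0.639 FPKM in the control libraries, and CDCA8, which encodes borealin, 24.6 ± 0.645 and 24.6 ± 1.34 FPKM. INCENP, the scaffold of the complex, was far lower, at 3.16 ± 0.127 FPKM in the SK4 libraries and 3.04 ± 0.193 FPKM in the control libraries. The AURKB to INCENP ratio of levels was 8.44 ± 0.227 in the SK4 libraries and 9.01 ± 0.753 in the control libraries (SD, n = 3 each), with overlapping groups.

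Spindle genes also overlapped between the groups. TPX2, which activates Aurora A on spindle microtubules, was at 39.71, 38.46 and 39.52 FPKM in the SK4 libraries, against 42.95, 41.92 and 36.76 FPKM in the control libraries. The controls spanned a wider range than the SK4 libraries and enclosed them. AURKA averaged 26.4 ± 0.412 FPKM in the SK4 libraries and 26.4 ± 1.21 FPKM in the control libraries. HMMR, a spindle pole protein, was at 3.32, 2.55 and 2.91 FPKM in the SK4 libraries, against 3.03, 2.71 and 1.96 FPKM in the control libraries. SK4 replicate 2 was again the lowest of its group and control replicate 3 of the other. NEK2, a centrosome kinase, averaged 3.997 ± 0.325 FPKM in the SK4 libraries and 4.43 ± 0.859 FPKM in the control libraries. The kinesin genes KIF11, whose motor separates spindle poles, and KIF2C, a microtubule depolymerase, averaged 3.90 ± 0.904 and 15.7 ± 0.207 FPKM in the SK4 libraries, against 3.57 ± 0.641 and 16.3 ± 0.652 FPKM in the control libraries. DLGAP5, a microtubule-stabilizing protein also called HURP, averaged 3.38 ± 0.175 FPKM in the SK4 libraries and 3.22 ± 0.412 FPKM in the control libraries. NUSAP1, which encodes a microtubule-bundling protein, held 0.03, 0.05 and 0.01 FPKM in the SK4 libraries and 0.02, 0.03 and 0.03 FPKM in the control libraries. That is an estimated 1 to 4 fragments per library. In GENCODE 29, NUSAP1 overlaps 2 other genes on its own strand, and CCNB2, BUB1B, CENPA, NEK2, KIF4A, PRC1 and TOP2A each overlap at least 1. These overlaps are of whole gene spans, and exons were not compared. How the authors counted overlapping genes is not known here, so the levels of these 8 genes are uncertain, not necessarily to the same degree.

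Genes of the spindle midzone and cytokinesis had log2 fold changes from -0.045 to 0.13. KIF20A, the kinesin MKLP2 that moves Aurora B to the midzone, was at 13.52, 14.03 and 13.41 FPKM in the SK4 libraries, against 14.81, 14.38 and 13.17 FPKM in the control libraries. Control replicate 3 was the lowest of the 6. PRC1, the microtubule cross-linker of the midzone, averaged 11.2 ± 0.541 FPKM in the SK4 libraries and 11.2 ± 1.41 FPKM in the control libraries, and its kinesin partner KIF4A 7.10 ± 0.365 and 6.98 ± 0.780 FPKM. KIF23, the centralspindlin kinesin, averaged 3.52 ± 0.290 FPKM in the SK4 libraries and 3.35 ± 0.306 FPKM in the control libraries. ECT2, which activates RhoA at the cleavage furrow, averaged 6.32 ± 0.741 FPKM in the SK4 libraries and 5.77 ± 1.17 FPKM in the control libraries, and the furrow scaffold ANLN 4.86 ± 0.767 and 4.82 ± 0.985 FPKM. KIF4B, a near-identical copy of KIF4A, was at 0.02 FPKM or less in every library.

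Genes of anaphase and mitotic exit included the smallest unadjusted p of the set. PTTG1, securin, the inhibitor of separase, was at 32.24, 30.02 and 31.86 FPKM in the SK4 libraries, against 34.56, 34.66 and 32.29 FPKM in the control libraries. All SK4 values lay below all control values, but SK4 replicate 1 and control replicate 3 were only 0.05 FPKM apart (log2 fold change -0.11, SE 0.047, 95% interval of the fold 0.861 to 1.00, limma unadjusted p = 0.0533, adjusted p = 0.99997). PTTG1 (ENSG00000164611) spans 160421822 to 160428744 of chromosome 5, plus strand, and each library held an estimated 1026 to 1428 of its fragments, for a counting error of 2.82%. Its copies PTTG2 and PTTG3P were at 0.26 FPKM or less in every library, but how shared reads were counted is not known here. UBE2C, the ubiquitin-conjugating enzyme of the anaphase-promoting complex, was at 73.56, 77.62 and 77.19 FPKM in the SK4 libraries, against 84.07, 81.8 and 77.04 FPKM in the control libraries. Only control replicate 3 reached into the SK4 range (log2 fold change -0.088, SE 0.043, limma unadjusted p = 0.0789). CDC20, the activator of that complex, was at 80.7, 85.99 and 83.48 FPKM in the SK4 libraries, against 84.39, 86.98 and 89.33 FPKM in the control libraries. SK4 replicate 2 lay above the lowest control (log2 fold change -0.059, SE 0.038). ESPL1, separase itself, averaged 3.43 ± 0.127 FPKM in the SK4 libraries and 3.35 ± 0.193 FPKM in the control libraries.

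Ratios between partner genes within a library were examined for 9 pairs, picked for acting together. Of the 9, only the PTTG1 to ESPL1 ratio, securin to separase, had groups that did not overlap, at 9.01, 8.91 and 9.51 in the SK4 libraries, against 10.7, 9.71 and 9.97 in the control libraries. No test was made of it, because the pairs were picked with the values known. PTTG1 alone already had groups apart, so the ratio partly repeats those values. The share of other gene pairs with ratios apart was not computed. The genes differ in transcript length and GC content, with 1.07 kb and 49.3% for PTTG1, against 6.67 kb and 57.0% for ESPL1. The CCNB1 to CDK1 ratio was 3.18 ± 0.389 in the SK4 libraries and 3.31 ± 0.588 in the control libraries, and the TPX2 to AURKA ratio 1.49 ± 0.00258 and 1.54 ± 0.0635 (SD, n = 3 each).

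The genes most used as proliferation markers varied widely among libraries of a group. TOP2A, the topoisomerase that untangles chromatids, was at 10.36, 7.62 and 9.24 FPKM in the SK4 libraries, against 9.65, 9.38 and 6.54 FPKM in the control libraries. The spread within each group was wider than the distance between the group means (log2 fold change 0.094, SE 0.162). MKI67, which encodes the Ki-67 antigen that coats mitotic chromosomes, averaged 5.76 ± 0.635 FPKM in the SK4 libraries and 5.46 ± 0.999 FPKM in the control libraries.

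Libraries of the same group differed from each other across many of these genes. Control replicate 3 was the lowest of the 6 libraries for 27 of the 40 tested genes, against 46.4% of all tested genes. SK4 replicate 2 and control replicate 3 were together the lowest pair for 24 of the 40, against 36.8% of all tested genes. SK4 replicate 2 differed from the mean of the other SK4 libraries by a median of -6.46% over the 40 genes, and control replicate 3 from the other controls by -14.2%. Over all tested genes with a GC value these medians were -2.49% and -6.55%. The coefficient of variation among libraries of a group had a median of 5.16% in the SK4 group and 10.5% in the control group over the 40 genes. It exceeded the counting error estimated from depth and transcript length in the SK4 group for 35 genes and in the control group for 37.

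**Figure D4:**
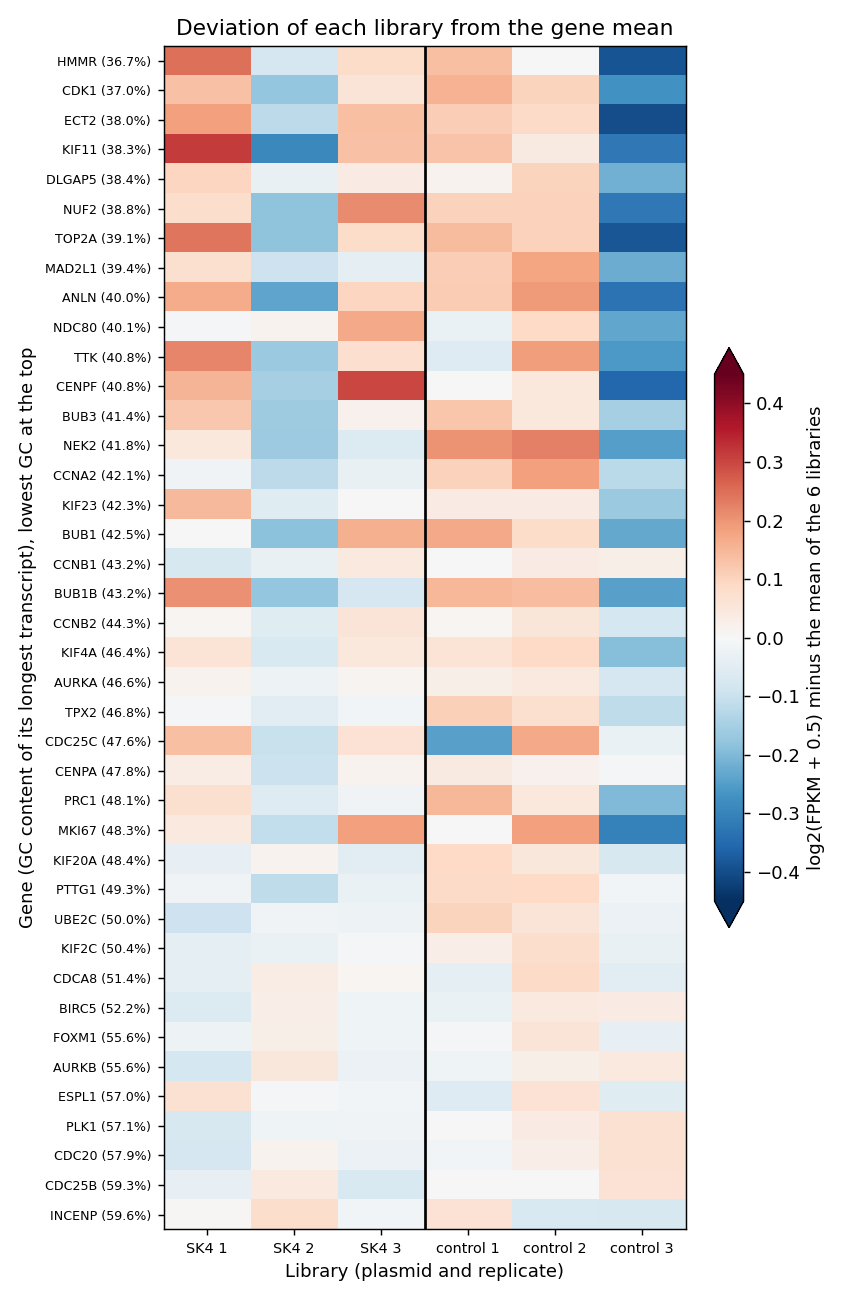
Deviation of each library (columns) from the mean of the 6 libraries, in log2(FPKM + 0.5) (colour), for the 40 tested genes (rows) ordered by the GC content of their longest transcript, lowest at the top. SK4 2 and control 3 are below the gene mean for most genes in the upper rows. In the lower rows the deviations are smaller for most genes, with MKI67, PRC1 and CDC25C among the exceptions.

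These deviations went with GC content. Across the 40 genes the deviation of SK4 replicate 2 from the other SK4 libraries had a Spearman rho of 0.82 with GC content, and that of control replicate 3 from the other controls a rho of 0.83. Over 11066 tested genes the same correlations were 0.63 and 0.63, and all points of a correlation come from the same libraries. KIF11, with a GC content of 38.3%, deviated by -29.9% in SK4 replicate 2 and by -24.4% in control replicate 3. TOP2A, at 39.1% GC, deviated by -21.1% and -29.7% in the same order, and ANLN, at 40% GC, by -22.5% and -28.6%. At the other end were CDC25B, at 59.3% GC, with 6.92% and 4.63%, and CDC20, at 57.9% GC, with 4.74% and 4.24%. Transcript length moved with the deviation less closely, with a rho of -0.37 for SK4 replicate 2 and -0.39 for control replicate 3. Level stood between, with a rho of 0.63 and 0.55 in the same order over the 40 genes. Over 11066 tested genes the rho with level was 0.21 and 0.19. Level itself went with GC content across the 40 genes (rho 0.50), so these relations overlap. Checkpoint and kinetochore genes had a median GC content of 41.4% and 40.5%, whereas passenger complex and anaphase genes had 53.9% and 53.5%. The median coefficient of variation was 13.4% in the SK4 group and 15.7% in the control group for the checkpoint genes, against 3.60% and 4.12% in the same order of groups for the passenger complex. These roles differ in level too, with gene means of 2.825 to 14.24 FPKM for the checkpoint and 3.097 to 36.38 FPKM for the passenger complex. Whether GC content, level or length causes the deviations was not tested.

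**Figure D5:**
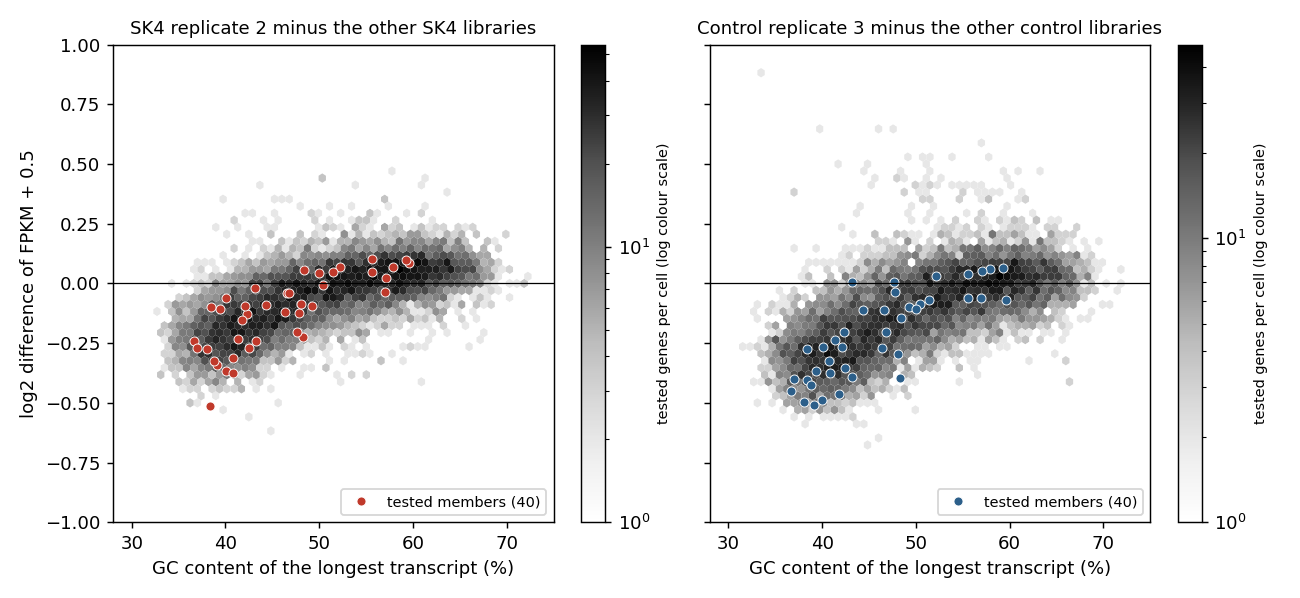
Log2 difference of FPKM + 0.5 between 1 library and the mean of the others of its group (vertical axis, shown from -1 to 1) against the GC content of the longest transcript in percent (horizontal axis), with SK4 replicate 2 on the left and control replicate 3 on the right. Grey cells count tested genes and coloured points are the 40 genes. Both rise with GC content, with a rho over the 40 genes of 0.82 on the left and 0.83 on the right. Over all tested genes with a GC value rho was 0.63 on the left and 0.63 on the right.

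With a smooth GC trend removed from each library, the libraries came closer together at the median gene, though not for every gene. SK4 replicate 1 was then lowest for 15 of the 40 genes, against 18.3% of all genes in that fit, and control replicate 3 for 10, against 22.1%. The median deviation of the 40 genes was -2.12% in SK4 replicate 1 and -2.08% in control replicate 3. The correction did not remove the relation with GC content among the 40 genes, where the deviation kept a rho of 0.30 in SK4 replicate 2, 0.46 in control replicate 3 and -0.41 in control replicate 1. The median width of the interval on either side of the log2 fold change became 0.111, against 0.206 without the correction, and the intervals of 34 of the 40 genes stayed within 1.2-fold, against 80.6% of all genes in that fit. No gene of the 40 was called (limma). PTTG1, CCNA2 and UBE2C, 3 in all and each lower in SK4, had an unadjusted p below 0.05, against 3.76% of the 11066 genes in that fit. Corrected PTTG1 was at 31.5, 30.5 and 31.8 FPKM in the SK4 libraries, against 33.8, 33.8 and 34.1 FPKM in the control libraries (log2 fold change -0.12, limma unadjusted p = 0.00613, adjusted p = 1). Corrected CCNA2 was at 14.9, 15.9 and 15.4 FPKM in the SK4 libraries, against 16.5, 17.4 and 16.7 FPKM in the control libraries (log2 fold change -0.13). Corrected groups were apart, lower in SK4, for 4 of the 40 (PTTG1, CCNA2, UBE2C and KIF2C), against 4.56% of the genes in that fit, and higher for 0, against 4.33%.

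The balance of directions changed with the library left out, most of all with control replicate 3. Without it, 34 of the 40 genes had a negative fold change, against 61% of all tested genes, and the median was -0.042 on the log2 scale, against -0.021 over all tested genes. CCNA2, MAD2L1, NEK2, PTTG1, TPX2 and UBE2C, 6 genes, then had an unadjusted p below 0.05, against 3.76% of all tested genes, and 0 were called (limma, lowest adjusted p = 0.949). Without SK4 replicate 2 the median was 0.034, and 24 of the 40 genes were positive, against 63.2% of all tested genes. Leaving out SK4 replicate 1 gave 14 positive, against 46.8% of all tested genes, and leaving out SK4 replicate 3 gave 16, against 58.5%. With control replicate 1 left out there were 23, against 66.7%, and with control replicate 2 left out 26, against 65.6%. Other settings moved the number of genes at an unadjusted p below 0.05 as well. Weighting each library by its fit gave 7, against 8.12% of all tested genes, and leaving out SK4 replicate 2 together with control replicate 3 gave 6, against 5.07%. Quantile normalization and centring on the median gene each gave PTTG1 alone, against 2.07% and 1.90%.

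Further genes of the same machinery were examined in 5 lists of 135 genes in all, of which 123 were tested. None of the 123 was called (limma), and 2 had an unadjusted p below 0.05, against 1.65% of all tested genes. Of their fold changes, 62 were positive and 61 negative, against 57.9% positive over all tested genes. Among them, 56 tested genes for other mitotic proteins gave a median of -0.0059 on the log2 scale. In this list CKS1B, a small CDK-binding subunit, was at 39.81, 39.76 and 40.08 FPKM in the SK4 libraries, against 41.33, 42.97 and 42.17 FPKM in the control libraries. The groups were apart by 1.25 FPKM (log2 fold change -0.079, limma unadjusted p = 0.0491, adjusted p = 0.99997). The 16 subunits and regulators of the anaphase-promoting complex had a median of -0.0074. Among them ANAPC15, which promotes release of CDC20 from the checkpoint complex, was at 5.52, 6.04 and 5.64 FPKM in the SK4 libraries, against 6.31, 6.29 and 6.52 FPKM in the control libraries (log2 fold change -0.14, limma unadjusted p = 0.0408, adjusted p = 0.99997). Its groups were apart, as were those of KIFC1, lower in SK4. Over the 123 genes the groups were apart, lower in SK4, for 3 (CKS1B, ANAPC15 and KIFC1), against 1.81% of all tested genes, and higher for 1 (CDKN1A), against 3.53%.

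A list of 14 genes held brakes on mitotic entry, such as WEE1 and CHEK1, together with CDC25A, MASTL, ARPP19 and ENSA, which promote it, and phosphatase subunits, and its median was -0.0071 on the log2 scale. CDKN1A, the CDK inhibitor p21, had the smallest p in that list and was at 18.24, 19.38 and 18.81 FPKM in the SK4 libraries, against 17.76, 16.92 and 17.86 FPKM in the control libraries. All SK4 values lay above all control values (log2 fold change 0.10, SE 0.045, limma unadjusted p = 0.0596, adjusted p = 0.99997). The 17 tested cohesin and condensin genes had a median of 0.042, with 14 positive, against 57.9% of all tested genes. Without control replicate 3 their median was -0.064. ESCO1, a cohesin acetyltransferase, had the smallest p there, at 1.25 ± 0.238 FPKM in the SK4 libraries and 1.04 ± 0.0379 FPKM in the control libraries. The 20 tested genes for MuvB, DREAM, E2F and NF-Y proteins, the factors of the promoter elements shown above, had a median of 0.010. Of these, 10 were positive, against 57.9% of all tested genes. NFYB, a subunit of NF-Y, had the smallest p in this group, at 2.26 ± 0.250 FPKM in the SK4 libraries and 2.04 ± 0.159 FPKM in the control libraries (SD, n = 3 each).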

How the data were processed

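Polyadenylated RNA of 6 BHT101 libraries was sequenced with a strand-specific kit, per the labels' protocols. The authors deposited 1 table of FPKM per gene, and HISAT2 and GRCh38 are named in the submitters' processing notes without versions. The tool and gene annotation behind the FPKM, the strand setting and the handling of shared reads are not given in the sources used here. In GENCODE 29, the whole spans of 18 of the 42 genes overlap an antisense gene, and without the strand setting their levels could hold its reads.

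The deposited FPKM were tested as log2(FPKM + 0.5) by limma (version 3.58.1, R 4.3.3) using a robust prior variance that follows the mean. A gene was tested if it reached 1 FPKM in 3 or more libraries. P-values were adjusted by the Benjamini-Hochberg method over the 11139 tested genes. The script was tested on simulated data, with independent noise and with changes larger than any of the G2 and mitosis genes. That run does not show how well smaller changes would be found. FPKM of short, low genes came in steps, from which the number of fragments per library was estimated. Counting errors cover counting only. GC content and length are those of the longest GENCODE 29 transcript, and promoters came from RefSeq. A GC correction (a smooth trend with a span of 0.5) was added after seeing the data.

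The genes, lists and tests were chosen with earlier results of these data known. Values in every library are given for the 3 genes of smallest p in each direction, the most abundant gene of each role and any gene whose groups were apart. In each companion list the gene of smallest p is named, and KIFC1 was named after its values were seen. CENPE and NUSAP1, which were not tested, are also given in every library. The other genes are given by their means and SDs, or as examples of library deviation, and those examples were picked with their values in view. CCNB1 was singled out for its GC-corrected values after they were seen. Fold margins of 1.5 and 1.2 were set after the intervals were seen. Protein sequences were not analysed here.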

Additional observations from a re-analysis of the deposited data

How the results depend on the processing

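KCNN4 was called and 0 of the 40 tested G2 and mitosis genes were called under every setting run: other pseudocounts, filters, scalings, library weights, prior variance, a stricter threshold, the replicate block, the GC correction and each library left out. The number of these genes at an unadjusted p below 0.05 (limma) was 0 as reported, 1 with median centred libraries, 1 with quantile normalization, 7 with library weights, 3 with the GC correction and 6 with SK4 replicate 2 and control replicate 3 both left out. Leaving out each library in turn gave 0 to 6, with 6 without control replicate 3. Over all tested genes the share at an unadjusted p below 0.05 was 1.65% as reported and 8.12% with library weights, which put 905 genes there, against 184. It was 1.90% with median centred libraries, 2.07% with quantile normalization and 3.76% with the GC correction. Without control replicate 3 it was 3.76%, and without both SK4 replicate 2 and control replicate 3 it was 5.07%. The number of genes called was 1 as reported and 4 with both of those libraries left out. For the 40 genes the median on the log2 scale lay between -0.0421 and 0.0342 when 1 library was left out, and was -0.0326 over the 27 genes that reached 5 FPKM in 3 or more libraries. Why these values moved was not tested. Same-numbered libraries did not consistently deviate together (r = 0.306, -0.41 and -0.154 for replicates 1, 2 and 3 over 11139 genes). SK4 replicate 2 and control replicate 3 deviated together the most (r = 0.528). These correlations therefore cannot settle whether the numbers pair the samples. The fit with the replicate block called 1 gene and 0 of the 40, with 133 genes at an unadjusted p below 0.05. Of 707 fold changes of single genes under alternatives, 693 moved by less than their error and 14 by more, none of them called. The filters, the prior variance, the replicate block and the stricter threshold do not alter a fold change. Values under those settings are among the 693 by design. The interval of the fold change passed 1.5-fold for CENPF and HMMR with a pseudocount of 0.1, for CENPF with no filter and with the replicate block, and for up to 5 of the 40 genes when 1 library was left out. NUSAP1, at an estimated 1 to 4 fragments per library, is too shallow for any comparison.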
